A study of Homo sapiens with 6 samples.

Results

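The transcripts described here are those of 42 named genes of homologous recombination, the Fanconi anaemia pathway, mismatch repair, end joining and the DNA damage checkpoint, taken by symbol from a table of 13117 genes. All 42 were in the table and all 42 passed the filter on low values, against 11526 of the 13117 genes overall. The libraries came from SNU449, an established human hepatocellular carcinoma line, in which the inducible vector pInducer20 held FOXO1AAA, a FOXO1 mutant named for alanines at its AKT sites. The Dox cells were given 2 µM doxycycline hydrochloride for 48 h, which induces the construct, and the Cont cells carried the same construct and were left without the drug for the same time. The labels give the genotype as WT for both groups. Each group has 3 libraries, made from total RNA by poly(A) capture, and the sources used here do not say whether the line is 1 clone or whether the libraries come from separate cultures. The p-values therefore rest on a spread between libraries that may be technical. Treated cells that lack the construct are not analysed here, so effects of doxycycline and of FOXO1AAA cannot be told apart in any value below.

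Breaks through both DNA strands are mended either by end joining, in which the Ku proteins hold the ends for DNA-PK and ligase IV, or by homologous recombination, in which the MRN complex and its partners trim the ends and BRCA1, PALB2 and BRCA2 ready the single strand for copying from the sister chromatid. Recombination therefore works mainly in S and G2 phase, and many of its genes are transcribed most in dividing cells. The Fanconi proteins clear crosslinks between strands, the MutS and MutL proteins correct replication errors, and the kinases ATM and ATR pass the damage signal to CHEK2 and CHEK1. FOXO1 is a transcription factor that insulin and growth factor signalling keep out of the nucleus through AKT, and its activity is known to slow the cell cycle in many cell types.

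The libraries of a group were alike, with correlations of log2(FPKM + 1) between 0.992 and 0.997, against 0.827 to 0.854 between groups. FPKM scales the fragments of a gene by its length and by the depth of the library. No total counts are given, but the steps between the lowest values gave relative depths from 0.790 to 1.31 of the mean library. On a rough length-based scale the thinnest of the 42 genes, RAD54B, had about 123, 39.1 and 50.9 reads in the 3 Dox libraries, and each of the other 41 had more in its lowest library. FOXO1 mRNA, which may or may not include reads of the construct, was at 2.87, 3.50 and 2.01 FPKM in Dox, against 0.741, 0.776 and 0.889 FPKM in Cont (log2 change 1.06, SE 0.15, limma adjusted p = 9.84e-05). Of 8 hepatocyte markers 5 are not in the table, the defining marker ALB averaged 1.19 FPKM in Dox and 0.321 FPKM in Cont, and AFP averaged 6.21 FPKM in Dox and 13.4 FPKM in Cont. Of 4 mesenchymal markers VIM (-1.64 in log2) and CDH2 (-1.03) were lower and FN1 (1.88) and ZEB1 (0.57) higher, with VIM at 291 FPKM in Dox and 906 FPKM in Cont. Of 5 epithelial markers KRT8 (-1.45) and KRT18 (-2.43) were lower, CDH1 was under 1 FPKM in every library, and KRT19 and EPCAM are not in the table. None of 5 immune markers is in the table, and the endothelial markers PECAM1 and CDH5 were each under 1 FPKM in every library. The 13 mitochondrially encoded mRNAs took 14.5, 14.7 and 13.2% of the summed FPKM in Dox and 3.00, 3.52 and 4.67% in Cont. Without them, in TPM, 27 of the 42 genes described below were lower and 10 higher, beside 3855 lower (31.9%) and 5837 higher of the 12078 genes tested in that setting.

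Most of the 42 genes were lower in Dox. Of the 42, 30 fell, 7 rose and 5 did not pass the test, and their median log2 change was -0.98. ATM, the kinase that signals breaks through both strands, rose 9.20-fold, whereas EXO1 and RAD54L, which act in end resection and strand exchange, fell 11.4-fold and 10.6-fold. The test was limma on log2(FPKM + 1) across 11526 genes with a threshold of 0.05 on the Benjamini-Hochberg adjusted p, and every log2 change is Dox minus Cont on that scale, which understates the change of low genes, while fold changes are ratios of mean FPKM. Across all tested genes 80.4% were called, 42.8% lower and 37.6% higher, with a median log2 change of -0.06, beside 88.1%, 71.4% and 16.7% of the 42. A fall of at least 1 in log2 was called in 21 of the 42 and in 16.6% of all tested genes. A fall of at least 3, called in 0.79% of all tested genes, was seen in EXO1 and RAD54L, and a rise of at least 1, called in 16.3%, in ATM alone of the 42. In 30 of the 42 every Dox library was below every Cont library and in 7 above, beside 43.7% and 38.4% of all tested genes (82.1% in either direction). These libraries are of bulk cells, in which fewer cells of a kind, such as cells in S phase, and less RNA per cell cannot be told apart.

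**Figure D1:**
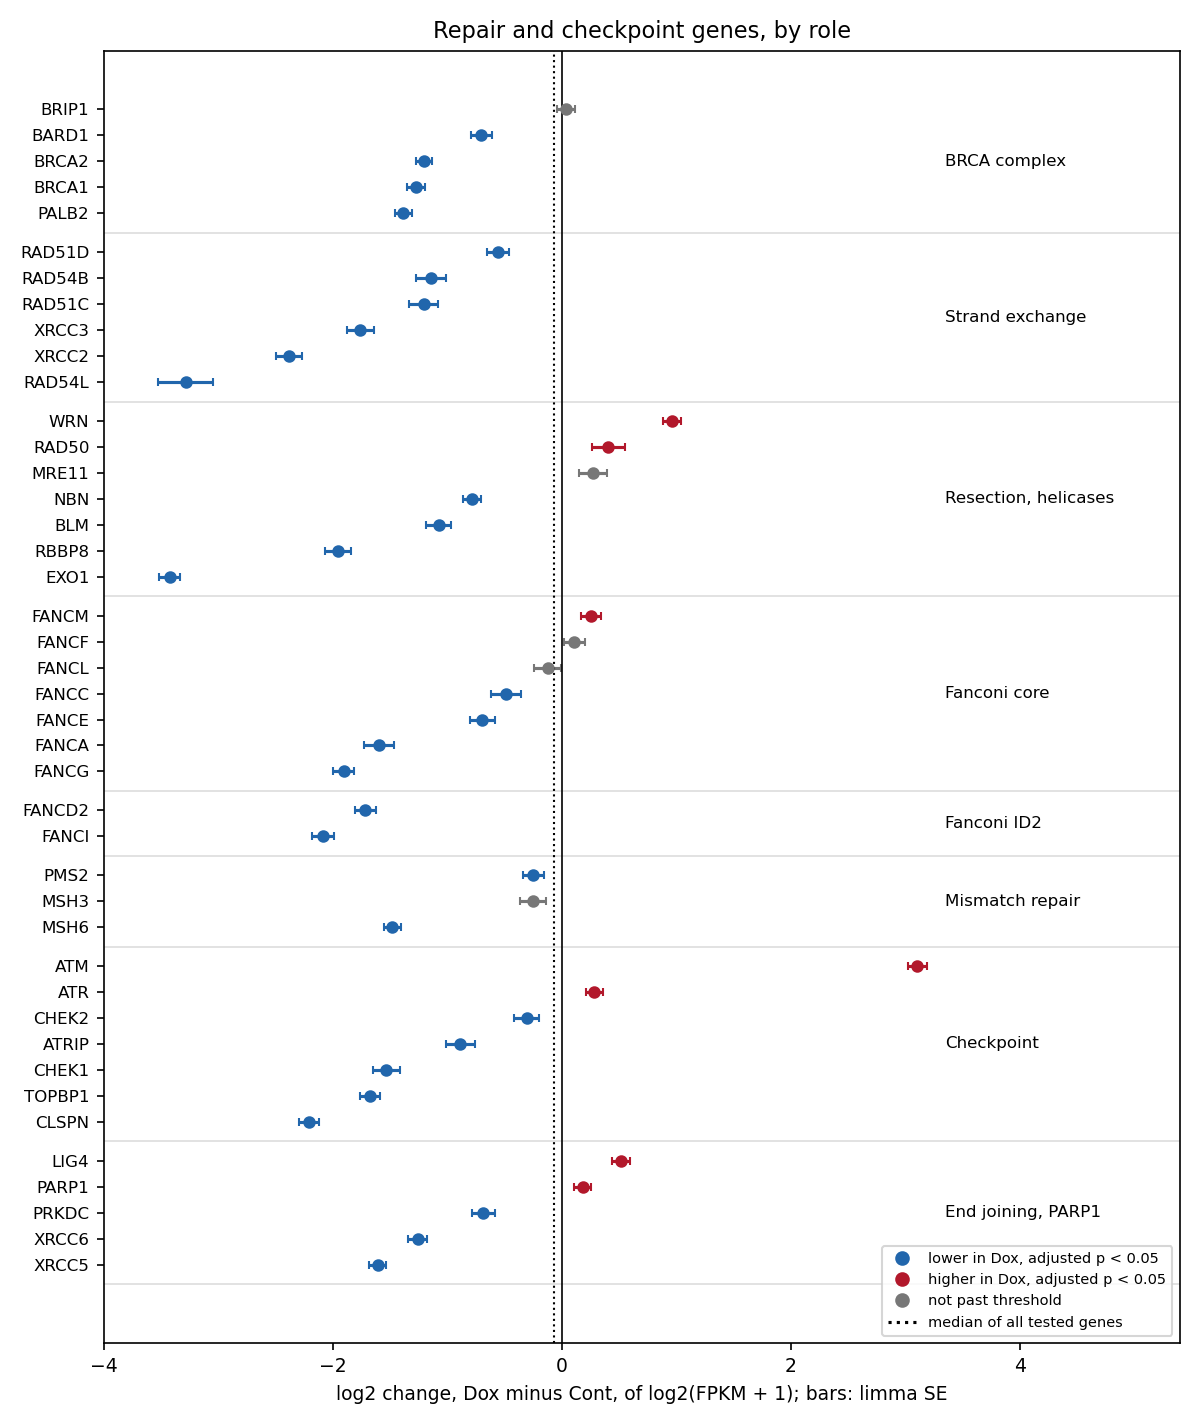
The log2 change of each of the 42 genes, Dox minus Cont, of log2(FPKM + 1), in role groups, with limma standard errors as bars and the median of all tested genes as a dotted line. ATM stands alone at 3.11, EXO1 and RAD54L lie furthest to the left at -3.43 and -3.28, and 30 points lie in blue as lower in Dox.

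Genes of proliferation fell in the same libraries. Of 22 proliferation markers 21 were lower (95.5%, beside 42.8% of all tested genes), none was higher (beside 37.6%), and their median log2 change was -2.44. Their summed level was 886, 883 and 1180.4 FPKM in Dox, against 2378, 2375 and 2183 FPKM in Cont, so Dox replicate 3 held more of it than the other Dox libraries and stayed below each Cont library. Much of this sum is RRM1, the marker that did not pass, at 394, 389 and 518 FPKM in Dox, and CDK1, at 191, 196 and 283 FPKM. Single markers differed: MKI67 and AURKA were also highest in Dox replicate 3, whereas MCM4, RRM2 and UHRF1 were highest in Dox replicate 1. The summed level of the 42 repair genes was 974, 1008 and 1068 FPKM in Dox, against 2071, 2097 and 2026 FPKM in Cont, 2.03-fold lower in Dox by the means, and 2.30-fold lower without ATM. The part of proliferation in the changes of the repair genes was not tested.

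In the BRCA1, PALB2 and BRCA2 group, 4 of 5 genes fell and 1 did not pass. BRCA1, a ubiquitin ligase and scaffold that steers breaks towards recombination, was at 12.3, 10.7 and 12.2 FPKM in Dox, against 29.3, 29.9 and 30.3 FPKM in Cont. PALB2, the bridge between BRCA1 and BRCA2, was at 14.2, 13.97 and 15.7 FPKM in Dox, against 39.2, 39.5 and 40.4 FPKM in Cont. BRCA2, which works at the trimmed single strand, was at 62.5, 65.8 and 70.3 FPKM in Dox, against 152, 147 and 161 FPKM in Cont. In each of these 3 genes all Dox libraries lay below all Cont libraries, with 2.54-fold, 2.72-fold and 2.32-fold lower means in Dox (log2 change -1.27, SE 0.08, limma adjusted p = 2.05e-07 for BRCA1, -1.38 for PALB2 and -1.20 for BRCA2, limma adjusted p at most 2.05e-07 in each). BARD1, the obligate partner of BRCA1, fell less, with 6.001 ± 0.480 FPKM in Dox and 10.4 ± 0.611 FPKM in Cont (SD, n = 3 each) (log2 change -0.70, SE 0.09, limma adjusted p = 4.80e-05). BRIP1, a helicase that binds BRCA1, had 8.94, 8.12 and 8.59 FPKM in Dox, against 8.49, 8.05 and 8.37 FPKM in Cont, and the groups overlapped (log2 change 0.04, SE 0.08, limma adjusted p = 0.681).

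RAD51C, RAD51D, XRCC2 and XRCC3, which form complexes that assist strand exchange, and the RAD54 translocases, which drive it, all fell. RAD54L (chr1:46247688-46278473, GRCh38) was at 4.14, 10.1 and 7.03 FPKM in Dox, against 61.2, 76.6 and 87.1 FPKM in Cont. Its Dox libraries ranged widely among themselves and all lay far below Cont (log2 change -3.28, SE 0.24, limma adjusted p = 7.88e-07). XRCC2 (chr7:152644779-152676165) was at 1.06, 1.19 and 1.47 FPKM in Dox, against 10.0, 10.1 and 11.9 FPKM in Cont, 8.61-fold lower in Dox (log2 change -2.38, SE 0.11, limma adjusted p = 3.38e-08). XRCC3 had 2.60, 1.77 and 2.31 FPKM in Dox, against 9.91, 10.7 and 9.03 FPKM in Cont (log2 change -1.76, SE 0.12, limma adjusted p = 4.24e-07). RAD51C, which is shared by both of these complexes, was at 23.5, 31.2 and 30.7 FPKM in Dox, against 72.0, 71.0 and 57.5 FPKM in Cont, a smaller fall with no overlap (log2 change -1.21, SE 0.12, limma adjusted p = 8.90e-06). The second translocase gene, RAD54B, was low throughout, at 0.888, 0.407 and 0.558 FPKM in Dox, against 2.49, 2.58 and 2.57 FPKM in Cont (log2 change -1.14, SE 0.13, limma adjusted p = 1.88e-05), and its fall on the deposited log2 scale was larger, -2.12. It was under 1 FPKM in every Dox library, so it entered the test through its Cont values alone, as no other of the 42 did. RAD51D had the smallest fall of the 6, with 2.10 ± 0.138 FPKM in Dox and 3.56 ± 0.223 FPKM in Cont (SD, n = 3 each) (log2 change -0.56, SE 0.10, limma adjusted p = 0.000449).

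Genes of end resection and of the RecQ helicases moved in both directions: 4 fell, 2 rose and 1 did not pass. EXO1 (chr1:241847967-241895148), the exonuclease of long-range resection and of mismatch repair, was at 14.1, 14.6 and 11.5 FPKM in Dox, against 148, 157 and 154 FPKM in Cont. The Dox libraries lay closely together with a mean 11.4-fold below Cont (log2 change -3.43, SE 0.09, limma adjusted p = 1.67e-09). RBBP8, which encodes the resection factor CtIP, was at 22.5, 28.5 and 24.6 FPKM in Dox, against 108, 109 and 85.4 FPKM in Cont (log2 change -1.96, SE 0.11, limma adjusted p = 1.60e-07). The helicase genes BLM and WRN went opposite ways: BLM, mutated in Bloom syndrome, had 1.58, 2.03 and 2.23 FPKM in Dox, against 5.15, 5.14 and 5.27 FPKM in Cont (log2 change -1.08, SE 0.11, limma adjusted p = 8.45e-06). WRN, mutated in Werner syndrome, had 22.5, 24.9 and 22.6 FPKM in Dox, against 12.1, 10.9 and 11.4 FPKM in Cont, and all Dox libraries were above all Cont libraries (log2 change 0.97, SE 0.08, limma adjusted p = 1.64e-06).

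The MRN complex, which binds broken ends first and activates ATM, split. NBN, the subunit that recruits ATM, fell, with 20.6 ± 1.09 FPKM in Dox and 36.3 ± 2.29 FPKM in Cont (SD, n = 3 each) (log2 change -0.78, SE 0.08, limma adjusted p = 6.45e-06). RAD50, the ATPase that bridges ends, was at 8.80, 7.83 and 8.01 FPKM in Dox, against 7.58, 5.90 and 4.64 FPKM in Cont, a called rise (log2 change 0.41, SE 0.14, limma adjusted p = 0.0226) that was lost without Cont replicate 2 (limma adjusted p = 0.0536), Cont replicate 3 (0.0703) or Dox replicate 1 (0.0709). MRE11, the nuclease, was at 7.67, 6.39 and 8.77 FPKM in Dox, against 6.52, 6.45 and 5.37 FPKM in Cont and its groups overlapped (log2 change 0.27, SE 0.12, limma adjusted p = 0.0624). The MRE11 value passed the test in TPM (log2 change 0.39, limma adjusted p = 0.0169), in TPM computed without mitochondrial transcripts (0.54, 0.00258), with median-of-ratios scaling (0.33, 0.0264) and without Dox replicate 2 (0.38, 0.0173).

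In the Fanconi pathway the subunits of the core complex, a ubiquitin ligase, did not move together. FANCG was at 5.90, 5.91 and 6.34 FPKM in Dox, against 24.4, 23.6 and 28.5 FPKM in Cont and FANCA, its direct binding partner, was at 2.43, 3.43 and 3.77 FPKM in Dox, against 10.98, 11.3 and 12.7 FPKM in Cont. Both fell without overlap (log2 change -1.91, SE 0.09, limma adjusted p = 3.92e-08 for FANCG; log2 change -1.60 for FANCA, limma adjusted p = 1.58e-06). FANCE and FANCC, which bind each other, fell less, by 0.69 and 0.49 in log2 (limma adjusted p = 0.000177 and 0.0055), and FANCC missed the test in TPM computed without mitochondrial transcripts (-0.24, limma adjusted p = 0.13). FANCL, the ligase subunit itself, had 9.70, 7.77 and 7.42 FPKM in Dox, against 8.21, 10.2 and 8.87 FPKM in Cont. FANCF, an adaptor in the complex, had 6.21, 5.73 and 5.51 FPKM in Dox, against 5.29, 4.97 and 5.69 FPKM in Cont. Neither of these passed, with overlapping groups (log2 change -0.12 and 0.11, limma adjusted p = 0.345 and 0.288), but FANCF passed as higher in TPM computed without mitochondrial transcripts (0.37, 0.00943). FANCM, the translocase that brings the complex to stalled forks, had 11.6, 12.5 and 11.8 FPKM in Dox, against 10.1, 10.7 and 8.98 FPKM in Cont, a small called rise (log2 change 0.25, SE 0.09, limma adjusted p = 0.0215) lost without Cont replicate 3 (limma adjusted p = 0.057) or Dox replicate 2 (0.0753).

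Both substrates of the core complex fell. FANCD2 was at 2.86, 2.84 and 3.36 FPKM in Dox, against 11.6, 12.8 and 12.2 FPKM in Cont. FANCI, with which FANCD2 forms a clamp on DNA once both are ubiquitinated, was at 6.995, 6.93 and 8.36 FPKM in Dox, against 35.7, 37.1 and 31.4 FPKM in Cont. The changes were -1.72 and -2.09 in log2 (limma adjusted p = 8.78e-08 and 3.44e-08), 4.04-fold and 4.68-fold lower in Dox by the means.

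Of the mismatch repair genes, MSH6, whose protein recognises single mismatches, was at 20.1, 21.3 and 23.4 FPKM in Dox, against 64.0, 62.3 and 59.7 FPKM in Cont (log2 change -1.48, SE 0.08, limma adjusted p = 6.29e-08). MSH3, which takes its place in the complex for larger loops, had 3.55, 4.20 and 3.93 FPKM in Dox, against 5.55, 4.92 and 4.07 FPKM in Cont. Its groups overlapped (log2 change -0.25, SE 0.12, limma adjusted p = 0.0705), and it passed as lower under quantile normalization (-0.38, limma adjusted p = 0.014) and without Cont replicate 3 (-0.35, 0.0168). PMS2, the endonuclease subunit of the MutL complex, had a fall near the threshold, with 5.32 ± 0.426 FPKM in Dox and 6.50 ± 0.246 FPKM in Cont (SD, n = 3 each) (log2 change -0.25, SE 0.09, limma adjusted p = 0.0277). That call was lost in TPM (limma adjusted p = 0.151), in TPM computed without mitochondrial transcripts (0.929), with median-of-ratios scaling (0.0802) and without Cont replicate 1 (0.0844), Cont replicate 2 (0.0856) or Dox replicate 2 (0.101). The annotation lists 11 PMS2 pseudogenes (and 5 for XRCC6 and 4 for CHEK2), and the sources used here do not say how shared reads were counted.

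The checkpoint genes held the largest rise of the list beside large falls. ATM (chr11:108222484-108369102, GRCh38) was at 133, 133 and 112 FPKM in Dox, against 13.0, 13.3 and 14.7 FPKM in Cont. The Dox mean was 9.20-fold above the Cont mean, with no overlap (log2 change 3.11, SE 0.09, limma adjusted p = 2.10e-09), a rise of a size, at least 3 in log2, that was called in 1.02% of all tested genes. Over the other 18 processing settings its log2 change stayed between 3.07 and 3.42. ATR, the kinase that senses single-stranded DNA at stalled forks, was at 25.4, 22.7 and 25.1 FPKM in Dox, against 20.6, 19.4 and 19.6 FPKM in Cont, a small rise without overlap (log2 change 0.28, SE 0.07, limma adjusted p = 0.00545). ATRIP, which ties ATR to single-stranded DNA, fell, with 3.32 ± 0.582 FPKM in Dox and 6.998 ± 0.916 FPKM in Cont (SD, n = 3 each) (log2 change -0.89, SE 0.13, limma adjusted p = 0.000101).

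TOPBP1, CLSPN and CHEK1, which act with or after ATR, all fell. TOPBP1, the activator of ATR, was at 56.8, 59.7 and 71.7 FPKM in Dox, against 199, 203 and 203 FPKM in Cont. CLSPN, which encodes the adaptor claspin that brings CHEK1 to ATR, was at 1.87, 1.90 and 1.64 FPKM in Dox, against 12.2, 12.1 and 11.5 FPKM in Cont. CHEK1, the effector kinase of ATR, was at 29.7, 32.0 and 42.5 FPKM in Dox, against 105, 100.1 and 99.6 FPKM in Cont. In all 3 the groups stood apart, with log2 changes of -1.67, -2.21 and -1.53 (limma adjusted p = 7.52e-08, 1.46e-08 and 1.06e-06). CHEK2, the effector kinase of ATM, had 17.4 ± 2.99 FPKM in Dox and 21.5 ± 0.159 FPKM in Cont (SD, n = 3 each), a small fall (log2 change -0.31, SE 0.11, limma adjusted p = 0.0238) whose call ended in TPM (limma adjusted p = 0.127), in TPM computed without mitochondrial transcripts (0.735), with median-of-ratios scaling (0.067), under quantile normalization (0.115) and without any 1 library other than Dox replicate 3 (from 0.052 to 0.0955).

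In end joining 3 genes fell, and LIG4 and PARP1 rose. XRCC5, which encodes the larger Ku subunit, was at 81.2, 84.2 and 93.0 FPKM in Dox, against 269.9, 274 and 249.96 FPKM in Cont. XRCC6, which encodes the smaller, was at 113, 117 and 133 FPKM in Dox, against 299, 302 and 271 FPKM in Cont. Both fell without overlap (log2 change -1.61, SE 0.07, limma adjusted p = 3.22e-08 for XRCC5; log2 change -1.26, limma adjusted p = 3.16e-07 for XRCC6). PRKDC, the catalytic subunit of DNA-PK, fell less, with 36.6 ± 0.953 FPKM in Dox and 60.1 ± 9.33 FPKM in Cont (SD, n = 3 each) (log2 change -0.69, limma adjusted p = 0.000124). LIG4, which seals the joined ends, was at 12.7, 13.3 and 11.8 FPKM in Dox, against 8.51, 8.69 and 8.31 FPKM in Cont, with all Dox libraries above all Cont libraries (log2 change 0.52, SE 0.08, limma adjusted p = 0.000179). PARP1, a sensor of strand breaks that also acts in other repair routes, was at 142, 146 and 166 FPKM in Dox, against 137, 134 and 128 FPKM in Cont. Its rise stood at the threshold (log2 change 0.18, SE 0.08, limma adjusted p = 0.0473) and was lost without a mean-variance trend (limma adjusted p = 0.0757), when replicate numbers entered as a block (0.0746) and without any 1 library other than Dox replicate 1 (from 0.0667 to 0.122).

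**Figure D2:**
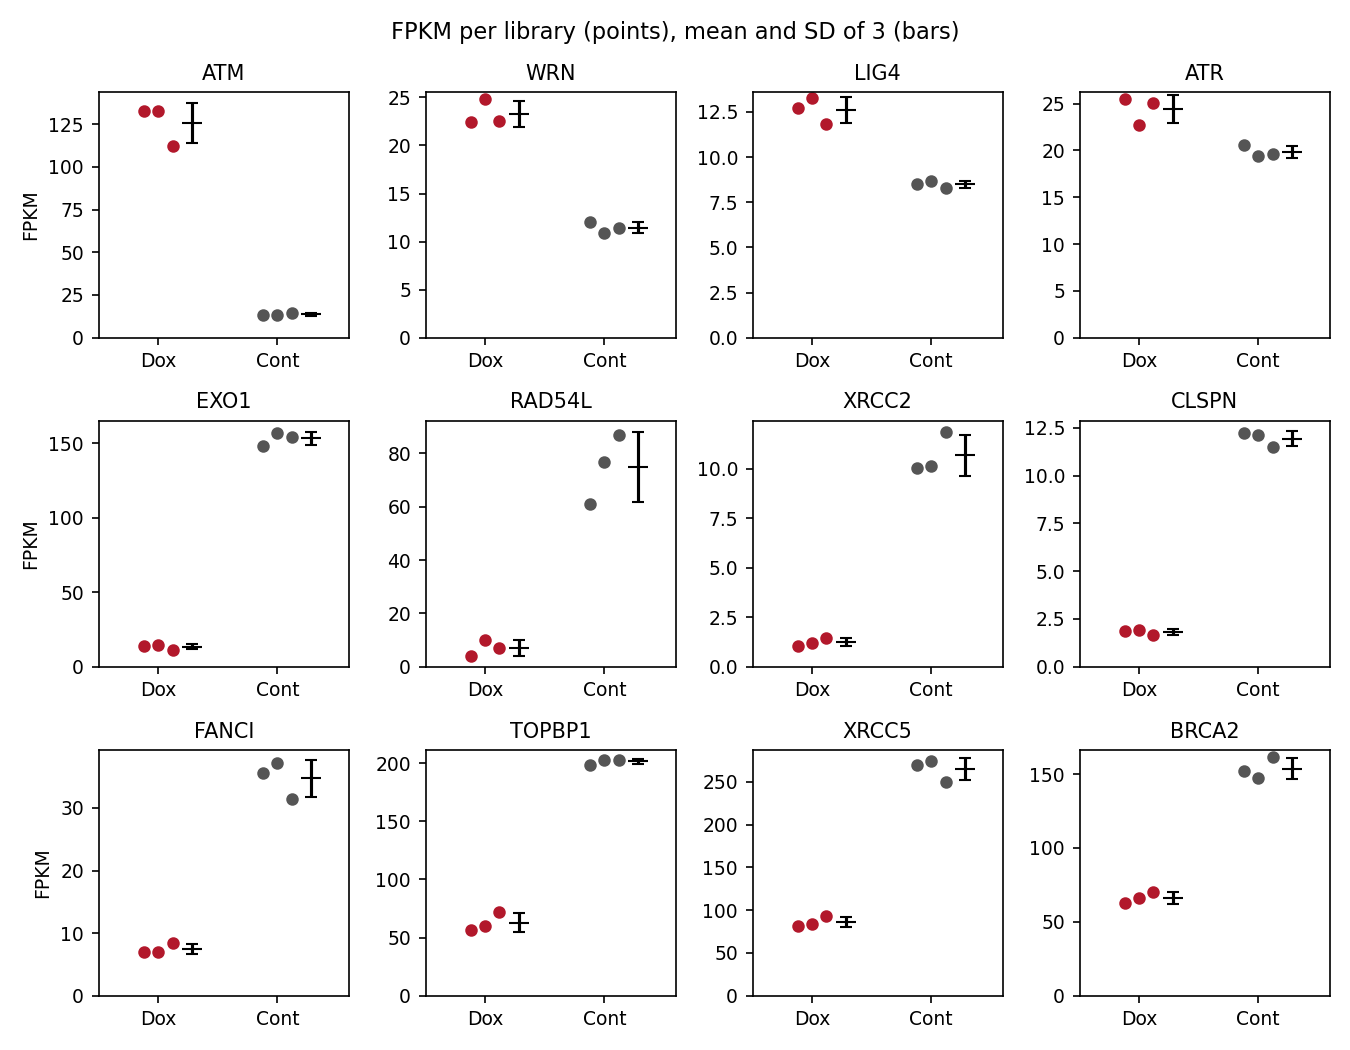
FPKM of 12 of the genes in each library, with the mean and SD of the 3 libraries of a group as bars and each axis starting at 0. In the top row ATM, WRN, LIG4 and ATR are higher in Dox, with ATM means of 126 FPKM in Dox and 13.7 FPKM in Cont, and in the other 8 panels all Dox points lie below all Cont points.

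The order of the levels changed with these moves. On the FPKM scale, which is per length, the highest of the 42 in Dox were PARP1 at 151 ± 13.0, ATM at 126 ± 11.9 and XRCC6 at 121 ± 10.9 (SD, n = 3 each). ATM and XRCC6 lay within their spread of each other. In Cont the highest were XRCC6 at 291 ± 16.9, XRCC5 at 265 ± 12.9 and TOPBP1 at 201 ± 2.36. ATM ranked 2 of 42 in Dox and 20 in Cont, and ATR ranked 11 in Dox and 19 in Cont. The lowest in Dox were RAD54B and XRCC2, at 0.617 ± 0.246 and 1.24 ± 0.210 FPKM.

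Ratios of 2 partners within a library do not depend on how libraries are scaled, and 16 such pairs were compared. In 9 pairs every Dox ratio was above every Cont ratio, in 5 below, and 2 overlapped. The share of other gene pairs that stand apart was not computed. Taken singly, 82.1% of all tested genes did not overlap between groups, so these counts are a description only. With 3 libraries against 3 the two-sided exact permutation test cannot go below p = 0.1, which it gave for each of the 14 pairs that stood apart (0.114 after Benjamini-Hochberg adjustment over the 16). ATM over ATR was 5.17 ± 0.693 in Dox and 0.690 ± 0.0591 in Cont (SD, n = 3 each), so ATM was the lower of these kinases in each Cont library and the higher in each Dox library. RAD51D over XRCC2, subunits of 1 complex, was 1.73 ± 0.352 in Dox and 0.336 ± 0.0502 in Cont, which likewise crossed 1. CHEK1 over CHEK2 was 2.00 ± 0.117 in Dox and 4.71 ± 0.123 in Cont.

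MSH6 over MSH3, which compete for the same partner, was 5.56 ± 0.454 in Dox and 13.0 ± 1.59 in Cont. NBN over MRE11 was 2.74 ± 0.296 in Dox and 5.95 ± 0.332 in Cont, and RAD50 over NBN was 0.398 ± 0.0294 in Dox and 0.166 ± 0.0360 in Cont, whereas RAD50 over MRE11 overlapped, at 1.10 ± 0.163 in Dox and 0.980 ± 0.159 in Cont (exact permutation p = 0.5). Within MRN, both ratios with NBN stood apart and the one without it did not. ATR over ATRIP was 7.45 ± 0.991 in Dox and 2.88 ± 0.472 in Cont, and LIG4 over XRCC6 was 0.105 ± 0.0142 in Dox and 0.0293 ± 0.00116 in Cont. Other pairs stood apart by smaller steps. XRCC5 over XRCC6 was 0.712 ± 0.0130 in Dox and 0.911 ± 0.00992 in Cont, FANCD2 over FANCI was 0.407 ± 0.00442 in Dox and 0.353 ± 0.0320 in Cont, BRCA2 over PALB2 was 4.53 ± 0.165 in Dox and 3.86 ± 0.132 in Cont and BRCA1 over BARD1 was 1.96 ± 0.0335 in Dox and 2.88 ± 0.182 in Cont. PRKDC over XRCC6 was 0.305 ± 0.0334 in Dox and 0.209 ± 0.0457 in Cont, with the lowest Dox ratio (0.267) barely above the highest Cont ratio (0.261), and RAD51C over XRCC3 was 13.3 ± 4.28 in Dox and 6.75 ± 0.465 in Cont. RAD54L over RAD54B was 4.66, 24.9 and 12.6 in Dox, against 24.5, 29.7 and 33.9 in Cont, and overlapped (exact permutation p = 0.2).

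**Figure D3:**
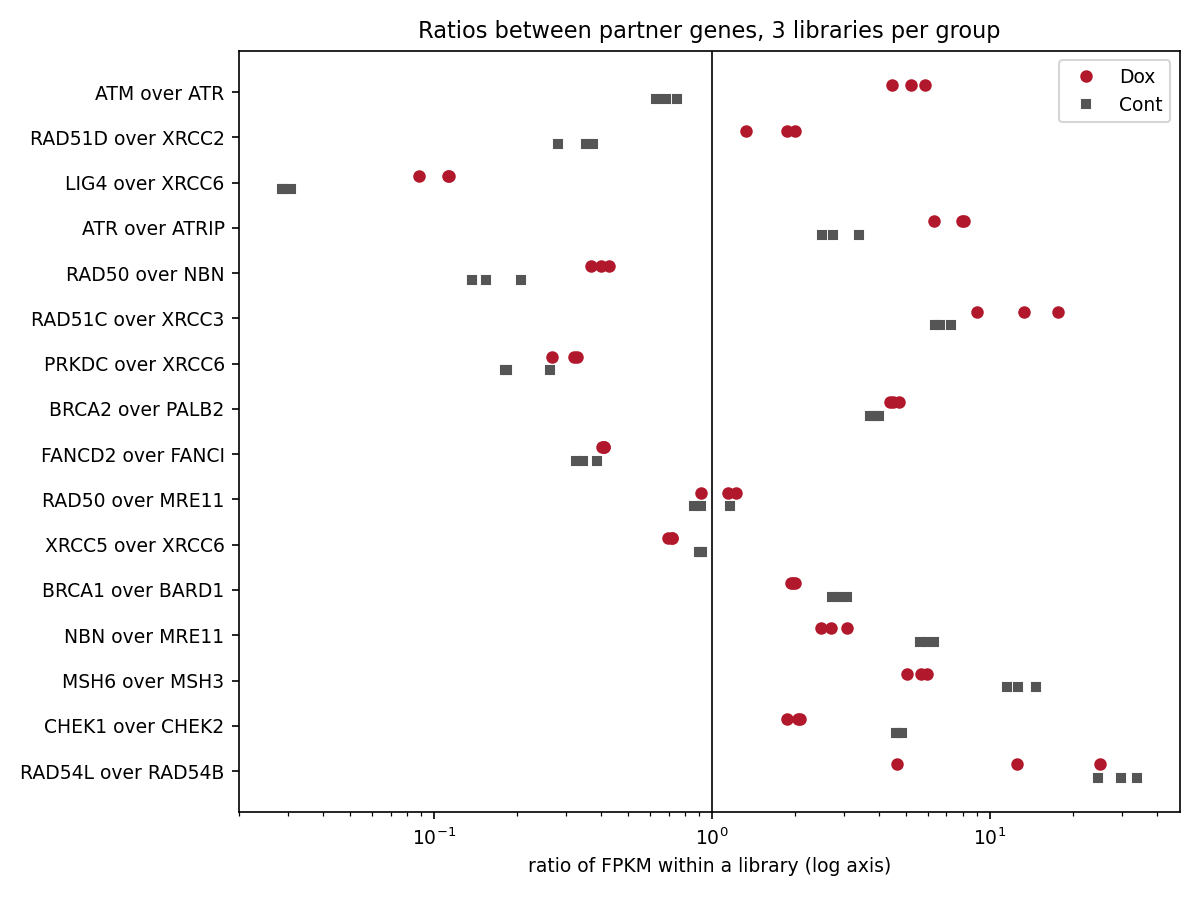
Ratio of FPKM between 2 partner genes within each library, on a log axis, for 16 pairs, with 3 Dox points above 3 Cont points in each row. The ATM over ATR and RAD51D over XRCC2 ratios lie on opposite sides of 1 in Dox and Cont, and only RAD50 over MRE11 and RAD54L over RAD54B overlap.

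Beside the 42, 98 other genes of the same pathways were listed, of which 96 were in the table and 95 were tested. Of these 57 fell (60.0%, beside 42.8% of all tested genes), 23 rose (24.2%, beside 37.6%) and 15 did not pass, with a median log2 change of -0.65. The 32 further recombination genes held 17 falls (53.1%) and 8 rises (25%), with the largest falls in RAD51AP1 (-2.39), a cofactor of strand exchange, and RMI1 (-2.03), a subunit of the BLM dissolvasome, and the largest rises in SPIDR (1.15), a scaffold of recombination, and the helicase gene RECQL5 (0.94). Of 14 further Fanconi genes 8 fell (57.1%) and 5 rose (35.7%), a share of rises near that of all tested genes. UBE2T, the ubiquitin-conjugating enzyme that acts with FANCL, was at 22.5, 20.9 and 23.2 FPKM in Dox, against 134, 147 and 129 FPKM in Cont. RFWD3, a ubiquitin ligase of crosslink repair, fell by 1.76 in log2. Among the rises were ERCC4, a nuclease subunit that unhooks crosslinks, with 33.3, 36.2 and 27.1 FPKM in Dox, against 7.96, 7.64 and 8.83 FPKM in Cont, and WDR48 (1.15), the cofactor of the deubiquitinase USP1, which itself fell (-1.63).

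Of 11 further genes listed for mismatch repair, which include replication factors, 9 fell (81.8%, beside 42.8% of all tested genes) and none rose, with the largest falls in the clamp loader gene RFC5 (-2.83) and the clamp gene PCNA (-2.72). The 19 tested genes of end joining and single-strand break repair held 9 falls and 9 rises (47.4% each), beside 42.8% lower and 37.6% higher among all tested genes. PARP2 (-1.99) and TDP1 (-1.16), which removes trapped topoisomerase 1, fell furthest. TDP2, which removes trapped topoisomerase 2, was at 151, 141 and 139 FPKM in Dox, against 25.9, 23.6 and 24.2 FPKM in Cont, the largest rise among the 95 (log2 change 2.50, SE 0.07, limma adjusted p = 1.77e-09), and SHLD1, a subunit of shieldin that limits resection, rose by 0.90. Of 19 tested checkpoint genes 14 fell (73.7%) and 1 rose (5.26%): the phosphatase gene CDC25A (-2.24) and the fork protection gene TIMELESS (-2.18) fell furthest, and PPM1D, a phosphatase that ends ATM signalling, rose by 0.80. All these calls are at a limma adjusted p under 0.05 over all 11526 genes.

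**Figure D4:**
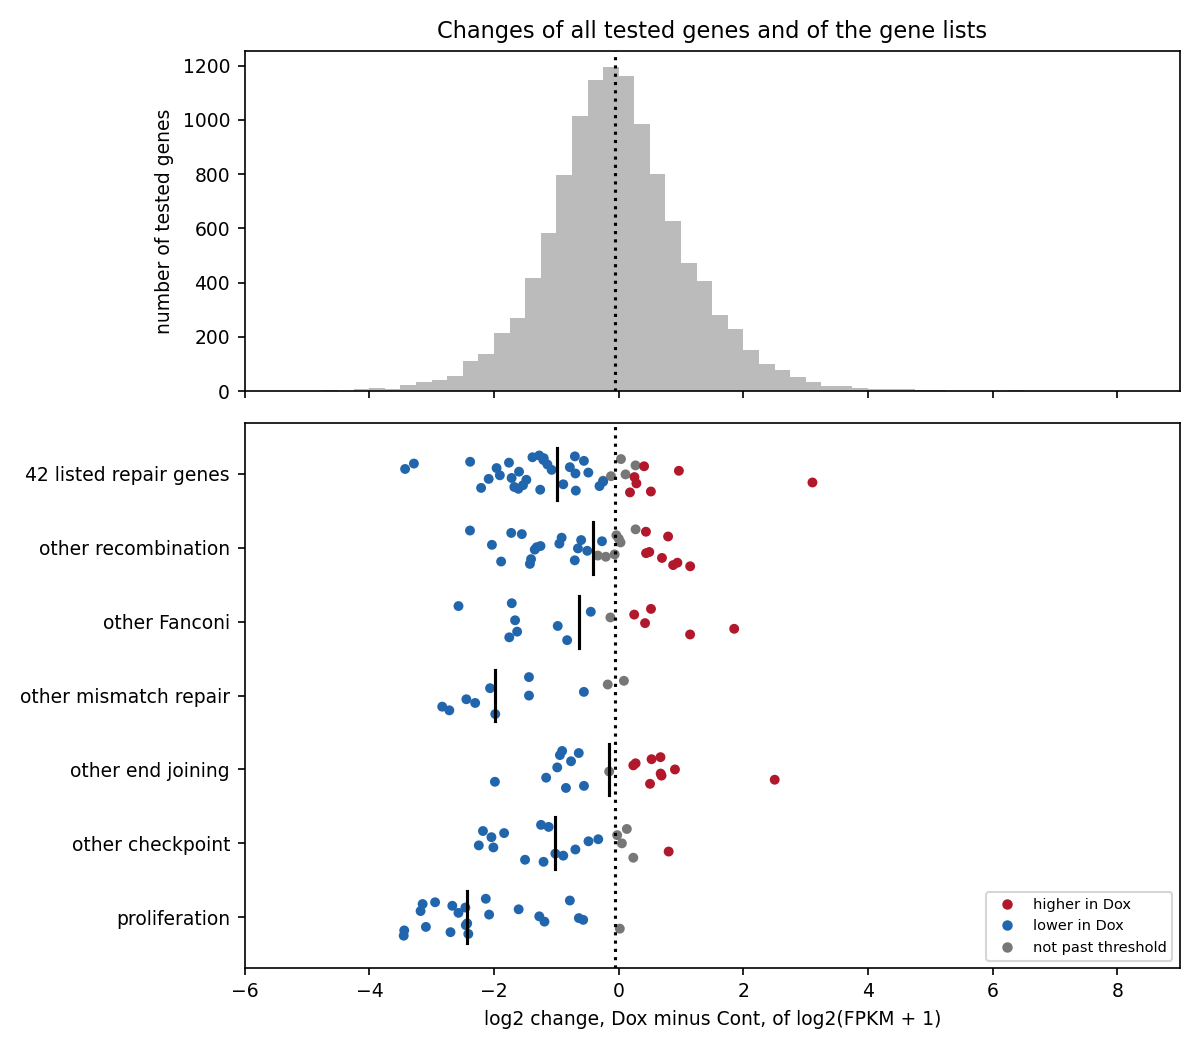
Above, the log2 changes of all 11526 tested genes, Dox minus Cont, and below, each tested gene of the lists as a point coloured by its call, with the list median as a bar and the median of all tested genes dotted. The median of the 42 repair genes lies at -0.98, that of the other end joining genes at -0.15 and that of the proliferation markers at -2.44.

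The promoters of the 42 genes were read for letters of factors that act on cell cycle and FOXO targets. RefSeq gives windows of 300 bases, from 250 before a start to 50 after it (GRCh38.p14), for 36 of the 42, in 55 windows. The 6 without a window are FANCI, NBN, PRKDC, RAD54B, WRN and XRCC5. E2F factors switch on genes of S phase, and the letters searched for them, on both strands, were TTTCCCGC, TTTGGCGC, TTTCGCGC and TTTGCCGC. They were present in at least 1 window of 11 of the 36 genes, in 10 of the 25 that fell, in none of the 6 that rose and in 1 of the 5 that did not pass, beside 6.79% of the 9407 tested genes with a window. By window the shares were 21.8% for the 55 and 3.31% for all 35116.

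The following stretches show where these letters lie in genes that fell, each 5′ to 3′ on the strand of the gene with the E2F type letters of either strand in capitals. RAD54L is shown as a gene with a large fall and no exact match to the letters searched. Its stretch does hold attcccgc, which differs from TTTCCCGC only in the first letter.
EXO1, chr1:241848200-241848223, plus strand: ggtcagccTTTCGCGCgctgtgta
TOPBP1, chr3:133661933-133661956, minus strand: cgcggttgGCGCGAAAgtcggttc
CLSPN, chr1:35769967-35770038, minus strand: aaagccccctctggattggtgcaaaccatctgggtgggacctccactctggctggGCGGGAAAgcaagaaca
FANCD2, chr3:10026377-10026442, plus strand: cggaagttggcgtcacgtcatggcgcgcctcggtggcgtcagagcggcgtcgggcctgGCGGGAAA
MSH6, chr2:47783140-47783163, plus strand: cccccagaTTTCCCGCcagcagga
FANCA, chr16:89816768-89816827, minus strand: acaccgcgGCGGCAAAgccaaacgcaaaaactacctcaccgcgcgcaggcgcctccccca
FANCC, chr9:95317710-95317781, minus strand: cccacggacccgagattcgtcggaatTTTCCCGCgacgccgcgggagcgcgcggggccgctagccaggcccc
RAD54L, chr1:46247616-46247687, plus strand: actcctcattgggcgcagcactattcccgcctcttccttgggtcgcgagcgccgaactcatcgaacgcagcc

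In EXO1, TOPBP1, CLSPN, FANCD2 and MSH6 the 8 letters begin between positions -7 and 5 of a RefSeq start, for MSH6 in 1 of its 4 windows. Counted from the start, the letters shown begin at position -46 in FANCC, which has a second match at -172, and at -172 in FANCA. The first 4 of these genes fell by 1.67 to 3.43 in log2 and FANCC by 0.49, and RAD54L, without the letters, by 3.28. CCAAT, bound by NF-Y, was in a window of 19 of the 36 genes, 52.8%, beside 43.4% of tested genes. By window it was in 47.3% of the 55, beside 34.6% of all windows. The CHR type letters TTTGAA and TTCGAA, of a kind of site used by genes of G2 and mitosis, were in 3 of the 36 genes, beside 15.5% of tested genes. By window they were in 5.45% of the 55, beside 16.4% of all windows. FOXO type letters, GTAAACA and GTAAATA, were in none of the 55 windows, those of ATM included, beside 5.97% of all windows and 5.41% of tested genes. A match is a string of letters and not a site shown to be bound, and its absence says only that the letters are not in these windows.

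Several of the genes start head to head with another gene. Reported here are 12 of the 42 with a tested protein-coding neighbour on the other strand whose GENCODE 29 start lay within 1000 bases, a comparison added after the values had been seen. In 4 pairs both genes fell, in 3 both rose, in 2 they were called in opposite directions, and in 3 at least 1 did not pass. Since 80.4% of all tested genes were called, 42.8% lower and 37.6% higher, these counts are a description only, and they include the PMS2 and FANCM calls that were lost in several settings. NPAT, a regulator of histone genes that starts beside ATM, was at 18.6, 19.5 and 18.8 FPKM in Dox, against 5.07, 4.86 and 4.73 FPKM in Cont (log2 change 1.76). PURG, beside WRN, had 5.58 ± 0.886 FPKM in Dox and 2.07 ± 0.229 FPKM in Cont (1.09), and FKBP3, beside FANCM, had 48.1 ± 1.81 FPKM in Dox and 28.6 ± 4.36 FPKM in Cont (0.74). MCM4, a subunit of the replicative helicase that starts 2 bases from PRKDC, was at 28.95, 28.2 and 28.6 FPKM in Dox, against 197, 193 and 173 FPKM in Cont, and its change of -2.67 was larger than the -0.69 of PRKDC. AIMP2, beside PMS2, had 9.47 ± 1.16 FPKM in Dox and 32.8 ± 4.43 FPKM in Cont (-1.69).

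XRCC6 and DESI1 changed by nearly the same amount, -1.26 and -1.23, and XRCC3 and ZFYVE21 both fell, by 1.76 and 1.10. PALB2 (-1.38) and DCTN5 (0.22) were called in opposite directions, as were BRCA1 (-1.27) and NBR1 (0.62), counted from the outermost annotated BRCA1 start. That start lies at chr17:43170245, whereas a RefSeq promoter window read for BRCA1 spans chr17:43125315-43125614. From the RefSeq start of that window NBR1 does not lie within 1000 bases. The differences between neighbours were not tested. The exons of 17 of the 42 overlap those of another protein-coding gene in GENCODE 29, and since the sources used here give no strand setting for the counting, reads of such pairs cannot be told apart. ATM overlaps NPAT and C11orf65 on the other strand, and C11orf65 was at 3.02, 3.19 and 1.89 FPKM in Dox, against 0.211, 0.311 and 0.325 FPKM in Cont, far below ATM. ATRIP overlaps TREX1, CHEK1 overlaps STT3A and RAD54B overlaps FSBP on their own strand, and FANCI overlaps POLG on the other. STT3A, which was higher than CHEK1 in each library, had 240.1 ± 14.8 FPKM in Dox and 469.9 ± 24.2 FPKM in Cont (SD, n = 3 each), and POLG had 313 ± 36.8 FPKM in Dox and 615 ± 70.9 FPKM in Cont (SD, n = 3 each), so both fell beside CHEK1 and FANCI, and their part in those values was not tested. Other overlapping genes moved otherwise. FBXO11, which overlaps MSH6 on the other strand, rose (log2 change 0.37), and ZNF276, which overlaps FANCA, did not pass (0.16). FSBP, too low to be tested, averaged 0.724 FPKM in Dox and 0.106 FPKM in Cont, while RAD54B fell. LRRC41, which overlaps RAD54L, and KLC1, which overlaps XRCC3, fell less than those genes (-0.41 and -0.42).

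**Figure D5:**
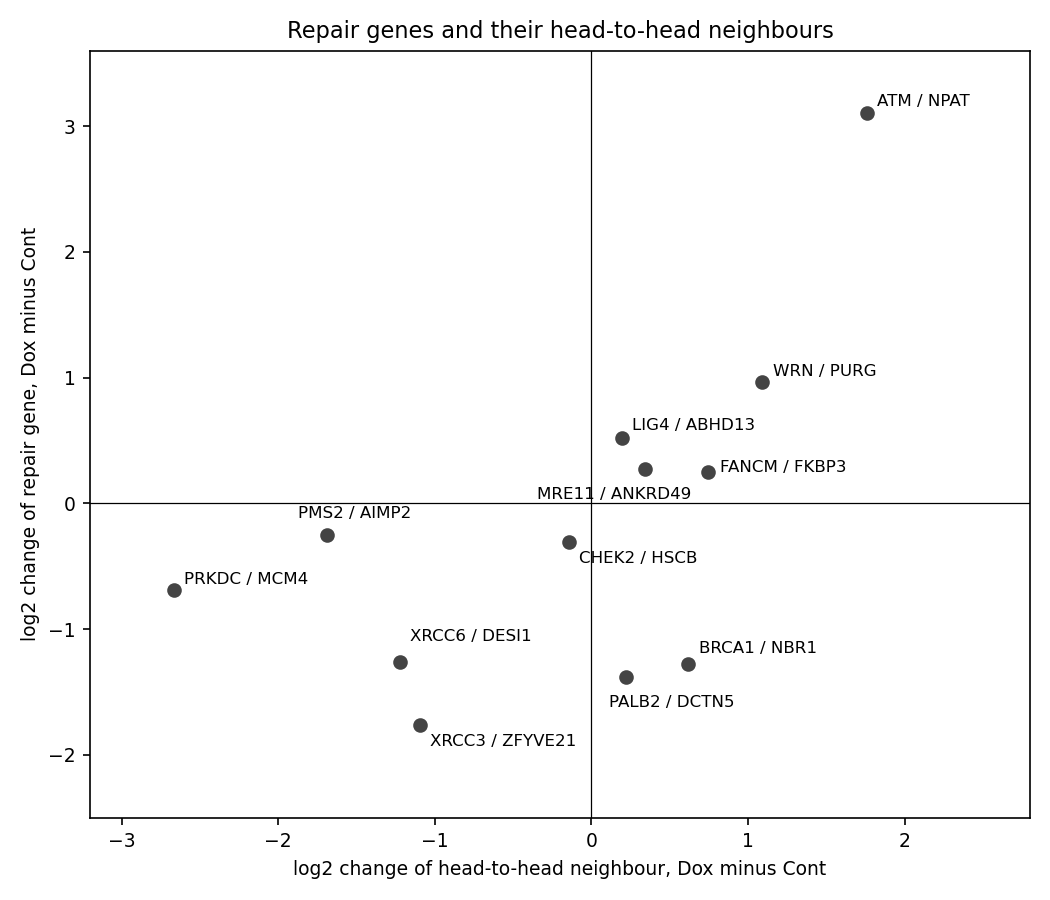
The log2 change, Dox minus Cont, of log2(FPKM + 1) of 12 repair genes on the vertical axis against that of the protein-coding gene that starts head to head with each on the horizontal axis. ATM and NPAT lie at the upper right with 3.11 and 1.76, PRKDC and MCM4 at the left with -0.69 and -2.67, and the PALB2 and BRCA1 pairs lie at the lower right with signs that differ. The BRCA1 pair is counted from the outermost annotated BRCA1 start.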

How the data were processed

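The 42 genes were given by name, and the members and all gene lists were chosen with earlier results of these data known. The deposited table, 13117 genes in 6 libraries, is named as FPKM but holds log2 FPKM from the authors with a small offset (values from -8.59 to 13.9). Per the submitters' processing notes FastQC 0.11.7 and GRCh38 were used, and the aligner, counter, annotation, strand setting and gene filter are not given in these sources. Columns were matched by sample title. The description of Cont replicate 1 names the column of Cont replicate 2, which leaves the groups as they are. The log2 values were turned back into FPKM. The 11526 genes that reached 1 FPKM in 3 or more libraries entered limma 3.58.1 (R 4.3.3), run two-sided on log2(FPKM + 1), with a mean-variance trend and Benjamini-Hochberg adjustment over all of them, after the procedure had been tested on simulated data. In that simulation few genes changed and the make-up of the libraries did not shift, so it does not check the test under changes as wide as those here. Ratios between partners used FPKM without a pseudocount and an exact permutation test. In the 307 genes at the shared floor, values of up to 20 reads lay within 0.05 reads of whole reads, which gave the relative depths. The 302 of these genes with a known length set the rough scale of reads. Absolute depth is not known, and interval estimates from counts were not made.

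Full values in all libraries were given for members past the threshold with a log2 change of at least 1 in size, for all that rose and for all that did not pass, and for each other list the 2 largest rises and falls were named. Head-to-head and overlapping neighbours and USP1 were named after values were seen. Gene positions come from GENCODE 29 (GRCh38) and promoter windows from RefSeq (GRCh38.p14). The alternatives tried were other pseudocounts, the deposited log2 values, other filters, other scalings, other moderation, the replicate number as a block and leaving out each library. The labels do not say that the replicate numbers pair the samples, and the main test did not pair them. Some genes, among them 1 head-to-head neighbour, are not reported here.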

Additional observations from a re-analysis of the deposited data

How the results depend on the processing

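Of the 42 genes, 32 kept their side of the threshold under each of the 18 alternatives in which they were tested, 31 of them with the same sign (FANCL, which never passed, was at 0.13 in TPM computed without mitochondrial transcripts, against -0.12 as reported). The exceptions (BRIP1, CHEK2, FANCC, FANCF, FANCM, MRE11, MSH3, PARP1, PMS2 and RAD50) all had changes under 0.5 in log2. BRIP1 passed as higher only in TPM computed without mitochondrial transcripts (log2 change 0.30, limma adjusted p = 0.0105), and no called gene was called in the other direction. The number that fell was 27 to 30 and the number that rose 4 to 10, against 30 and 7 as reported. Leaving out 1 library gave 28 to 30 falls, and 4 to 6 rises, with 4 without Cont replicate 3. In TPM computed without mitochondrial transcripts 27 fell and 10 rose, and all tested genes gave 3855 lower and 5837 higher (60.2% of calls higher), against 4936 and 4329 as reported (46.7%). There the median of all genes was 0.22, against -0.06 as reported, and the median of the 42 lay 1.04 below it, against 0.92. The median of the 42 was -0.98 as reported, -0.82 in that setting, -1.08 with a filter at FPKM 5 (39 of the 42 tested), -1.15 on the deposited log2 values, -1.13 and -1.15 with pseudocounts of 0.1 and 0.01, and -1.06 to -0.92 without 1 library. The replicate number as a block gave 30 falls and 6 rises, with PARP1 as the gene lost. Same-numbered samples had correlations of -0.00483 to 0.0793 in their deviations from the group means, against -0.0932 to 0.0924 for samples with different numbers. Not each sample correlated best with its own number. With 3 libraries a group these values cannot decide whether the samples were paired. The causes of these shifts were not tested. With 3 libraries a group and absolute depth unknown, small changes of low genes are the least certain.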

Other observations

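Properties of the 42 genes that played no part in their choice were set against their log2 changes, as descriptions over genes, which are not independent replicates. The rank correlation (Spearman's rho) of the change with the Cont level was -0.47 over the 42 and -0.43 over 11354 protein-coding tested genes, and both quantities share the Cont values. With the length of the longest transcript rho was 0.24 over the 42, 0.18 without ATM and 0.16 over all, and with the span of the gene it was 0.23, 0.19 and 0.16. With the coding length rho was 0.15 over the 42 and 0.11 over all.

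Dox replicate 3 stood slightly apart from the other Dox libraries, with a correlation of 0.992 with each of them, against 0.995 between Dox replicates 1 and 2. Dox replicate 3 had the highest value of the 3 in 19 of the 42 genes, among them CHEK1, TOPBP1, XRCC5 and XRCC6. It also had the highest summed level of proliferation markers, a sum in which RRM1 and CDK1 weigh heavily. Dox replicates 1 and 2 were highest in 10 and 13 of the 42, and the shares over all tested genes were not computed. Whether these counts are particular to the 42 is therefore not known. Over all tested genes Dox replicate 3 correlated with the Cont libraries at 0.847 to 0.854, against 0.827 to 0.834 for the other Dox libraries. Without Dox replicate 3 the median change of the 42 was -1.06, against -0.98 with all libraries.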
